A study of Rattus norvegicus with 9 samples.

Results

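The 8 genes described here encode voltage-gated sodium channel alpha subunits, and they were taken by symbol from the 20413 genes of an FPKM table of rat dorsal root ganglia (DRGs). They are Scn1a, Scn2a, Scn3a, Scn8a and Scn9a, whose channels are blocked by low doses of tetrodotoxin, Scn10a and Scn11a, whose channels resist it, and Scn7a, which encodes the atypical channel Nax. The sensory neurons of the limb have their cell bodies in DRGs, beside satellite glia, Schwann cells and immune cells. RNA-Seq was carried out on the right, ipsilateral L4–6 DRGs of male Sprague Dawley rats aged 8–10 weeks, collected at day 10, with 3 libraries in each of 3 groups.

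In the CPIP (chronic post-ischemia pain) group, a tight O-ring stopped the blood flow of 1 hind paw and was cut off after 3 h for reperfusion. The CPIP+EA group had the same ischemia, followed by electroacupuncture (EA) at 100 Hz once daily for 10 consecutive days at the Zusanli and Kunlun points of both hind limbs. The Sham group, labelled Con, wore a cut O-ring that left the flow open, and all rats had the same anesthesia. No group had EA without ischemia or needles without current, so the handling and needling of EA cannot be told apart from its current. The RNA came from 3 rats of each group, and the labels number the libraries without naming animals, so p-values measure the spread between these libraries.

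A voltage-gated sodium channel opens when the membrane is depolarised and carries the inward current of the action potential. The alpha subunit forms the pore and the voltage sensors, and beta subunits and cytoplasmic partners adjust its gating and its place in the membrane. Sensory neurons mix several of these channels, and the mix sets how readily a neuron fires. In sensory neurons with cut axons, Scn3a message is known to go up and Scn10a and Scn11a message to go down.

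All 8 genes passed the filter of a mean of at least 0.1 FPKM over the 9 libraries, as did 17187 genes in all. FPKM divides the fragments of a gene by its transcript length and by the mapped total of the library, so levels of different genes can be set side by side. How many reads stand behind each FPKM value cannot be read from the table, and precision rests on 3 libraries a group. Across genes, which are not independent replicates, the lowest Pearson r between any pair of libraries on the log2 scale was 0.977. The 8 pan-neuronal markers lay between 23.56 and 1920 FPKM in all 9 libraries. In whole ganglia, fewer cells of a type and less RNA per cell cannot be told apart.

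CPIP+EA replicate 3 stood apart in several of its cell marker lists. Its 6 neutrophil and marrow markers summed to 625.03 FPKM, against 33.82 to 263.44 in the other 8 libraries, its 7 macrophage markers to 183.2 against 86.72 to 128.12, and its red cell markers to 5081 against 580.87 to 3444. The mean log2 level of its 10 nociceptor markers was 6.10 against 6.38 to 6.63, and that of its pan-neuronal markers was 6.66 against 6.80 to 7.03. On the scale used for the other lists, its pan-neuronal markers summed to 2566 FPKM, inside the 2537 to 3032 of the other 8 libraries, and its nociceptor markers to 2177, under their 2208 to 2768. On the mean log2 scale its red cell list stood at 6.32, beside a highest of 6.31 elsewhere, its neutrophil and marrow list at 5.62 against at most 4.35 and its macrophage list at 4.01 against at most 3.70. Scn10a, Scn11a, Scn9a, Scn8a and Scn2a each had their lowest value of 9 in CPIP+EA replicate 3. Other libraries stood apart in other lists. Fibroblast markers summed to 620.86 and 538.2 FPKM in CPIP+EA replicates 1 and 2, against 810 to 1272 in the others, with replicate 3 at 1077. Schwann cell markers had their lowest sum, 4941 FPKM, in CPIP+EA replicate 1.

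On the GRCr8 assembly of RefSeq, in which the 8 gene identifiers were all found, the members lie in 3 places. Scn3a, Scn2a, Scn1a, Scn9a and Scn7a follow each other in that order on chromosome 3, Scn10a and Scn11a neighbour each other on chromosome 8, and Scn8a lies alone on chromosome 7. LOC108351811, a gene inside Scn10a on the opposite strand, had at most 0.48 FPKM in any library. The promoters of 3 members, chosen after values were seen, are shown. Scn3a was the member above Sham in all libraries with ischemia, and Scn10a and Scn11a are the neighbouring pair that resists tetrodotoxin. Lower means in both ischemic groups were also those of Scn1a, Scn2a, Scn8a and Scn9a. Each is the 250 bases before the gene's RefSeq start on GRCr8, read 5′ to 3′ on the minus strand, with a match to TGANTCA in capitals. These are Scn3a at chr3:70666199-70666448, Scn10a at chr8:128340299-128340548 and Scn11a at chr8:128444719-128444968.
Scn3a: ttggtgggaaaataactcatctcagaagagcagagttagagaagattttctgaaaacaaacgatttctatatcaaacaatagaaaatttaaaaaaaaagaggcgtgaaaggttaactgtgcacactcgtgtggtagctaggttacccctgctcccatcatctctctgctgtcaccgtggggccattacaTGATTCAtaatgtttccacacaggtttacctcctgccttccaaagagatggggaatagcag
Scn10a: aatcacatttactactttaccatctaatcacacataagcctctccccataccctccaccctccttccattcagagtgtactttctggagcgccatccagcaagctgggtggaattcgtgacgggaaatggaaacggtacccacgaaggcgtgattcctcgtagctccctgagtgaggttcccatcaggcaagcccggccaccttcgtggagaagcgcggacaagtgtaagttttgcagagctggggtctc
Scn11a: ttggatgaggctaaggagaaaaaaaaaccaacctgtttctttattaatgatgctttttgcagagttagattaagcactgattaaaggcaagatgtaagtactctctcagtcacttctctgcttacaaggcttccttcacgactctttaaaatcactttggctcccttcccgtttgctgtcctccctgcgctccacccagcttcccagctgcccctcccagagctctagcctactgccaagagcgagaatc

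TGANTCA, with any middle base, is a loose form of the AP-1 motif TGACTCA or TGAGTCA, bound by factors of the Jun, Fos and ATF families. It reads the same on both strands apart from its middle base. Scn3a held 1 match, TGATTCA, whose middle base T is not that of the strict motif. The first base of this match lay 61 bases before the start. The other 6 members with a window held none (Scn2a, Scn7a, Scn8a, Scn9a, Scn10a and Scn11a). A match to the loose form was present in 6.36% of all 27457 such windows and in 4.76% of the 13061 windows of tested genes. The cAMP response motif TGACGTCA, searched on both strands, was in none of the 7 windows and in 2.66% of those of tested genes. The GC box GGGCGG, on either strand, occurred 6 times in the window of Scn8a and 1 time in that of Scn7a, against a share of 53.4% of tested genes with at least 1. The Scn8a window was 86% G and C, above the median of 58.8%. Scn2a (39.6%), Scn3a (41.6%), Scn11a (46.4%), Scn9a (52.4%), Scn10a (53.2%) and Scn7a (56%) were below it. A match is a description of the letters and not a sign of binding.

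The 8 channel genes spanned a wide range of levels. Scn7a was the most abundant, with a mean of 182 FPKM over the 9 libraries. It was followed by Scn10a (56.6), Scn9a (41.3), Scn11a (35.6), Scn1a (25.4) and Scn8a (20.3), and Scn2a (2.95) and Scn3a (1.84) were lowest. The ranges of Scn7a and Scn10a did not overlap over the 9 libraries, nor did those of Scn8a and Scn2a or of Scn2a and Scn3a. Between the neighbours from Scn10a to Scn8a the ranges overlapped, although within a library Scn10a exceeded Scn9a in 9 of 9 and Scn1a exceeded Scn8a in 9 of 9. Scn9a exceeded Scn11a in 8 of 9 libraries, and Scn11a exceeded Scn1a in 8 of 9.

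**Figure D1:**
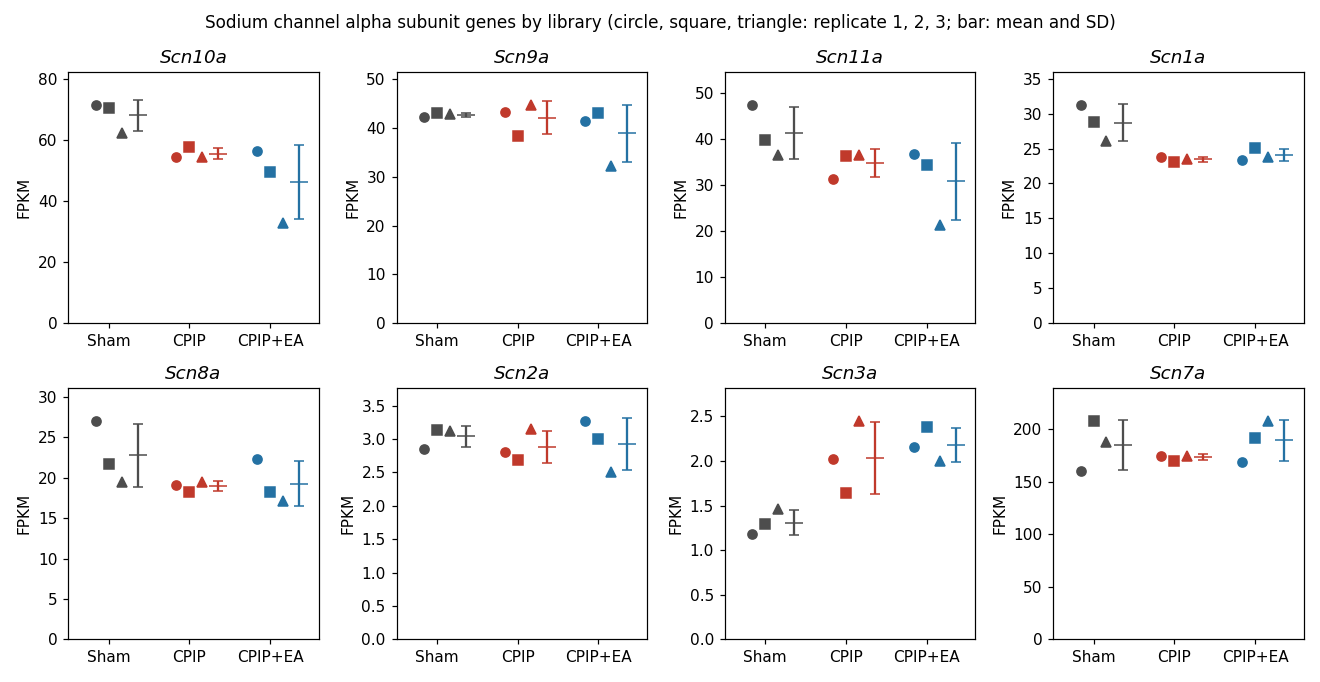
FPKM (y axis, from 0, with its own scale in each panel) of the 8 sodium channel alpha subunit genes in the 9 libraries (x axis, by group), with circles, squares and triangles for replicates 1, 2 and 3 and a bar for the mean and SD. The 6 libraries with ischemia sit above the 3 Sham libraries for Scn3a and below them for Scn1a and Scn10a, and the lowest Scn10a, Scn11a, Scn9a, Scn8a and Scn2a values are those of CPIP+EA replicate 3.

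Among the channels sensitive to tetrodotoxin, Scn1a encodes Nav1.1, found mainly in larger myelinated sensory neurons. It stood at 31.29, 28.75 and 26.08 FPKM in Sham, 23.80, 23.04 and 23.49 in CPIP, and 23.37, 25.06 and 23.78 under CPIP+EA. All 6 libraries with ischemia were below all 3 Sham libraries, and the CPIP and CPIP+EA ranges overlapped. The group means were 28.7 ± 2.61, 23.4 ± 0.382 and 24.1 ± 0.882 (SD, n = 3 each).

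Scn3a encodes Nav1.3, a channel of embryonic neurons that is scarce in the adult ganglion. It measured 1.18, 1.29 and 1.46 FPKM in Sham, 2.02, 1.64 and 2.45 in CPIP, and 2.16, 2.38 and 2.00 under CPIP+EA. It was the only member whose CPIP and CPIP+EA values all exceeded its Sham values, at means of 1.31 ± 0.141, 2.04 ± 0.405 and 2.18 ± 0.191 (SD, n = 3 each). It remained the lowest of the 8 in every group.

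Scn9a encodes Nav1.7, which amplifies small depolarisations in pain-sensing neurons. Its values were 42.24, 43.01 and 42.95 FPKM in Sham, 43.18, 38.43 and 44.78 in CPIP, and 41.53, 43.00 and 32.23 under CPIP+EA. The 3 groups overlapped, and 32.23 in CPIP+EA replicate 3 was the lowest of the 9 values. Scn8a encodes Nav1.6, the channel of the nodes of Ranvier, and measured 27.03, 21.73 and 19.51 FPKM in Sham, 19.14, 18.29 and 19.43 in CPIP, and 22.37, 18.25 and 17.08 under CPIP+EA. The CPIP values were all below the Sham values, by 0.08 FPKM at the closest, and those of CPIP+EA overlapped both groups, with 17.08 in replicate 3 the lowest of 9. Scn2a, whose channel Nav1.2 is mainly one of the central nervous system, lay between 2.51 (CPIP+EA replicate 3) and 3.27 FPKM in the 9 libraries, with means of 3.04, 2.88 and 2.93 in Sham, CPIP and CPIP+EA.

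Of the channels that resist tetrodotoxin, Scn10a encodes Nav1.8, which carries most of the upstroke current of nociceptors. It stood at 71.52, 70.28 and 62.32 FPKM in Sham, 54.39, 57.75 and 54.41 in CPIP, and 56.22, 49.36 and 32.81 under CPIP+EA. All libraries with ischemia were below those of Sham, and CPIP+EA replicate 3 was well below the rest. The means were 68.0 ± 4.99, 55.5 ± 1.93 and 46.1 ± 12.0 (SD, n = 3 each), so the CPIP+EA group had the widest spread.

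Scn11a encodes Nav1.9, whose persistent current acts near the resting potential. Its values were 47.49, 39.77 and 36.61 FPKM in Sham, 31.27, 36.35 and 36.64 in CPIP, and 36.79, 34.45 and 21.26 under CPIP+EA. The overlap with Sham was narrow, since the highest CPIP value exceeded the lowest Sham value by 0.03 FPKM. The CPIP values lay wholly inside the CPIP+EA range, and CPIP+EA replicate 3 was again the lowest library. The means were 41.3 ± 5.60, 34.8 ± 3.02 and 30.8 ± 8.37 (SD, n = 3 each).

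Scn7a, or Nax, opens in response to extracellular sodium rather than to voltage and is known in glia and Schwann cells as well as in neurons. It measured 159.98, 207.75 and 187.44 FPKM in Sham, 174.61, 170.01 and 174.82 in CPIP, and 168.30, 191.71 and 207.52 under CPIP+EA. The 3 groups overlapped. Unlike Scn9a, Scn10a and Scn11a, it was not low in CPIP+EA replicate 3, where it came within 0.23 FPKM of its highest value. The 8 Schwann cell markers summed to between 4941 and 12285 FPKM over the 9 libraries, and their part in the Scn7a level was not tested.

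The comparison of CPIP with Sham asks which channel messages differed after ischemia and reperfusion. Scn1a, Scn8a and Scn10a were lower and Scn3a was higher in all 3 CPIP libraries than in all 3 Sham libraries, and no member passed the threshold. In limma on log2(FPKM + 0.5), with all 9 libraries in 1 fit and p-values adjusted over all genes tested, 0 of the 8 were called at an adjusted p under 0.01 and a change of at least 1.5-fold, with a background of 0.355% of all genes. At an unadjusted p under 0.05 there were 2 members (8.66% of all genes), Scn3a higher and Scn1a lower. Groups that did not overlap were seen for 4 members, 1 higher and 3 lower, where 7.98% of all genes were higher and 7.9% lower.

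On that log2 scale, which understates the change of a low gene, Scn3a was higher in CPIP by 0.48 (SE 0.14, 95% interval 0.17 to 0.79, adjusted p = 0.261 in limma). Scn1a differed by −0.28 (SE 0.070, 95% interval −0.44 to −0.12, adjusted p = 0.165 in limma). Both intervals left out 0 and neither met the threshold after adjustment. Scn10a differed by −0.29 (95% interval −0.66 to 0.086, adjusted p = 0.741 in limma), Scn8a by −0.25 (−0.53 to 0.044, adjusted p = 0.685) and Scn11a by −0.24 (−0.67 to 0.19, adjusted p = 0.856). With Sham replicate 1 left out, Scn8a differed by −0.12 and Scn11a by −0.14. The intervals of Scn9a (−0.26 to 0.22), Scn2a (−0.32 to 0.19) and Scn7a (−0.33 to 0.15) spanned 0 and left out a change of 1.5-fold. Without CPIP+EA replicate 3, which enters the shared spread of the fit, the folds were the same and 4 members had an unadjusted p under 0.05 in limma, Scn3a higher and Scn1a, Scn10a and Scn11a lower, beside 10.5% of all genes. The median over the 8 members was −0.16, with 7 of 8 below 0, beside a median of −0.0064 and 52.1% below 0 over all genes.

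The axon injury list, fixed for marker checks with earlier results known, moved between these groups. All 10 of its genes (Atf3, Sprr1a, Gal, Npy, Vip, Gap43, Jun, Sox11, Csf1 and Cacna2d1) rose in CPIP at the same threshold, with a median log2 fold change of 2.32, where 0.343% of all genes were called higher. Their summed FPKM was 204.71 to 210.32 in Sham, 860.8 to 1008 in CPIP and 936.61 to 1061 under CPIP+EA. The nociceptor markers had 0 of 10 called and a median of −0.076, with Trpv1 (−0.31) and Tac1 (−0.23) lower and Prph (0.28) higher without overlap, and Tac1 at an unadjusted p under 0.05. The pan-neuronal markers had 0 of 8 called and a median of 0.027, with 2 of 8 (Snap25 and Rbfox3) lower without overlap and at an unadjusted p under 0.05. The 7 large-fiber neuron markers had 0 called and a median of −0.15, with 5 of 7 below 0, 3 lower (Nefm, Ntrk3 and Pvalb) and 1 higher (Spp1, 0.32) without overlap, and Ntrk3 at an unadjusted p under 0.05. The 5 satellite glia markers had 0 called and a median of 0.011, with Kcnj10 (−0.24) lower and Apoe (0.10) higher without overlap. Their summed FPKM, most of it Apoe, was 3598 to 3722 in Sham, 3761 to 4098 in CPIP and 3984 to 4185 under CPIP+EA, so that the Sham libraries lay below the others. The 7 macrophage markers had 0 called and a median of 0.15, with Aif1 (0.15) and C1qa (0.35) higher without overlap. The 5 fibroblast markers had 0 called and a median of −0.22, all 5 below 0, with Lum (−0.47) and Pdgfra (−0.12) lower without overlap and Lum at an unadjusted p under 0.05. The red cell markers had 0 of 7 called and a median of −0.73, with Hbb-b1 (−1.72) at an unadjusted p under 0.05. Of the Schwann cell, endothelial, neutrophil and marrow, and skeletal muscle markers, none was called, had an unadjusted p under 0.05 in limma or separated the groups. CPIP replicate 2 held the most skeletal muscle RNA, with 6 markers summing to 136.88 FPKM against 7.71 to 42.11 in the others. The part of these lists in the channel values was not tested.

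**Figure D2:**
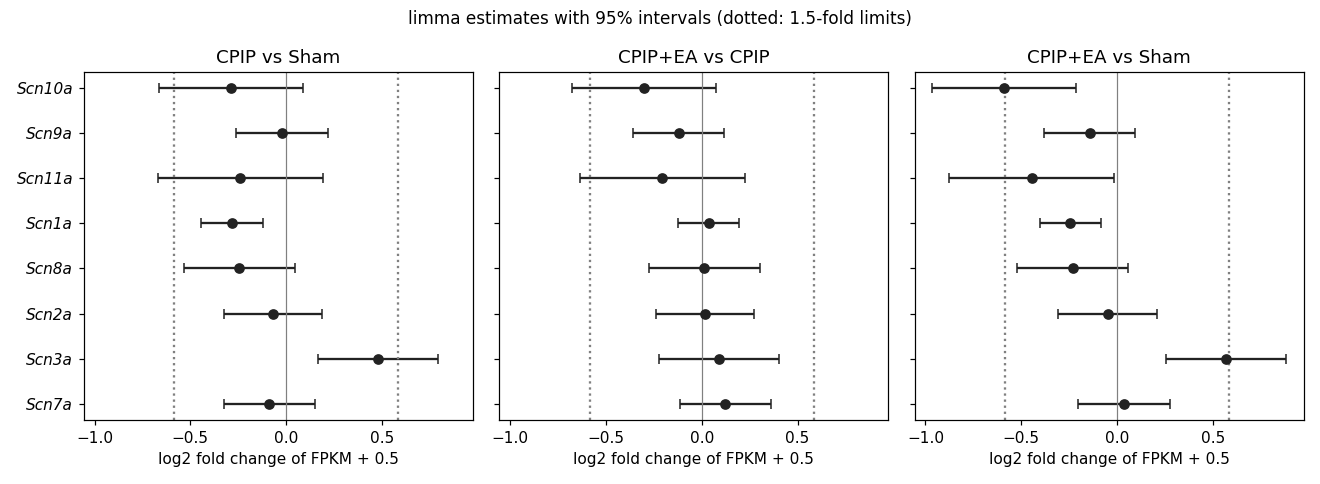
Log2 fold changes of FPKM + 0.5 from limma (x axis) for the 8 channel genes (y axis) in 3 comparisons, with points for the estimates, bars for 95% intervals and dotted lines at 1.5-fold. Scn3a lies at 0.48 and 0.57 against Sham in CPIP and CPIP+EA, Scn10a at −0.29 and −0.59, and all 8 intervals span 0 between CPIP+EA and CPIP.

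The comparison of CPIP+EA with CPIP asks whether EA was followed by a different channel mix in the ischemic animals. No member separated the groups, and the values of all 8 overlapped (8.23% of all genes did not overlap). In limma, 0 of 8 were called, with a background of 0% of all genes, and 0 of 8 had an unadjusted p under 0.05, against 4.29% of all genes. The highest mean difference was for Scn7a, at 0.12 (95% interval −0.12 to 0.36), and the lowest for Scn10a, at −0.30 (−0.67 to 0.076, adjusted p = 0.996 in limma). Scn1a differed by 0.037 (−0.12 to 0.20), Scn3a by 0.089 (−0.22 to 0.40), Scn8a by 0.012 (−0.28 to 0.30), Scn2a by 0.017 (−0.24 to 0.27) and Scn9a by −0.12 (−0.36 to 0.12). For these 5 genes and Scn7a the interval left out a change of 1.5-fold, and for Scn10a and Scn11a (−0.21, −0.64 to 0.22) it did not.

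The lower means of Scn10a, Scn11a and Scn9a in CPIP+EA than in CPIP became smaller or turned when CPIP+EA replicate 3 was left out, the library with low nociceptor markers and high neutrophil, macrophage and red cell markers. With limma refitted without it, Scn10a differed by −0.074, Scn11a by 0.038 and Scn9a by 0.0073. Scn2a moved to 0.11, Scn8a to 0.091, Scn3a to 0.14 and Scn7a to 0.053, while Scn1a, at 0.045, stayed near its value with all libraries. With the mean of the 10 nociceptor markers subtracted from each library, a scaling chosen after values were seen, Scn10a differed by −0.25 and Scn11a by −0.16 with all libraries kept. Both steps are the 0.047 that this scaling added to every gene in this comparison. With all libraries, other marker lists also differed between CPIP+EA and CPIP. Their medians were −0.46 for Schwann cell markers (7 of 8 below 0) and −0.31 for fibroblast markers (5 of 5 below 0). They were 0.75 for neutrophil and marrow markers (6 of 6 above 0) and 0.76 for red cell markers (7 of 7 above 0). The part of the marker lists in the channel values was not tested.

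CPIP+EA was also compared with Sham, which shares its libraries with both comparisons above. Scn3a was higher, and Scn1a and Scn10a lower, in all 3 CPIP+EA libraries than in all 3 Sham libraries (8.87% of all genes higher and 7.32% lower). In limma 0 of 8 were called, beside 0.483% of all genes, and 4 had an unadjusted p under 0.05 (12.2% of all genes), Scn3a higher and Scn1a, Scn10a and Scn11a lower. Scn10a differed by −0.59 (SE 0.17, 95% interval −0.96 to −0.21, adjusted p = 0.173 in limma), or by −0.36 (adjusted p = 0.0830) without CPIP+EA replicate 3. Scn11a differed by −0.45 (−0.88 to −0.017, adjusted p = 0.390 in limma), or by −0.20 (adjusted p = 0.499) without that library. For Scn10a all 3 CPIP+EA libraries lay below the lowest Sham library, while for Scn11a the highest CPIP+EA value, 36.79, was above the lowest Sham value, 36.61. Markers moved too, with all 10 axon injury genes called higher (0.477% of all genes). Of the other lists none was called. Rbfox3, Snap25, Gfra2, Lum, Col1a1, Glul and Slc1a3 were lower, and Prph, Apoe, Aif1 and Acta1 higher, without overlap. The fibroblast markers had a median of −0.64, with 4 of 5 at an unadjusted p under 0.05 in limma. The part of these markers in the channel values was not tested.

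Scn3a differed from Sham by 0.57 in CPIP+EA (SE 0.14, 95% interval 0.25 to 0.88, adjusted p = 0.108 in limma) and by 0.62 without replicate 3. Scn1a differed by −0.25 (SE 0.070, −0.41 to −0.087, adjusted p = 0.183 in limma) and by −0.24 without it. The differences of Scn3a and Scn1a thus did not rest on CPIP+EA replicate 3. With the nociceptor markers subtracted, Scn3a differed by 0.70, Scn10a by −0.46 and Scn1a by −0.12, since that scaling added 0.13 to every gene of this comparison. Scn8a (−0.23), Scn9a (−0.14), Scn2a (−0.051) and Scn7a (0.035) had intervals that spanned 0. Without replicate 3 these 4 stood at −0.15, −0.016, 0.040 and −0.035, and Scn3a, Scn1a and Scn10a had an unadjusted p under 0.05, beside 13.8% of all genes. Over the alternative settings listed below, Scn8a lay between −0.34 and −0.10 in this comparison.

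The CPIP and CPIP+EA groups were also joined against Sham in the same limma fit, a contrast chosen after values were seen, which gives 6 libraries against 3. Scn3a was higher by 0.52 (SE 0.12, 95% interval 0.25 to 0.79, adjusted p = 0.0799 in limma), and its 6 values all exceeded the 3 of Sham. Scn1a differed by −0.26 (SE 0.061, −0.40 to −0.13, adjusted p = 0.0824 in limma) and Scn10a by −0.44 (SE 0.14, −0.76 to −0.11, adjusted p = 0.253 in limma), each with 6 values below the 3 of Sham. Values that did not overlap were found for 4.05% of all genes on the higher side and 3.22% on the lower side. None of the 8 members was called, beside 0.599% of all genes. Fgf12 differed by −0.39 (adjusted p = 0.0156 in limma), outside both limits.

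The mix of channels can be given as shares of the summed FPKM of 7 members, leaving out Scn7a, which would outweigh them. That sum was 208 ± 15.8 FPKM in Sham, 180 ± 4.10 in CPIP and 164 ± 28.7 under CPIP+EA (SD, n = 3 each). The CPIP+EA libraries stood at 185.71, 175.50 and 131.67, and their mean without replicate 3 was 181. Scn10a and Scn11a together took 52.6% ± 0.912 in Sham, 50.2% ± 2.27 in CPIP and 46.3% ± 4.68 under CPIP+EA, where replicate 3 had the lowest share, 41.1%. The share of Scn9a was 20.6% ± 1.74, 23.4% ± 1.62 and 23.8% ± 1.23. The Scn3a share was 0.528 to 0.760% in Sham, 0.920 to 1.33% in CPIP and 1.16 to 1.52% under CPIP+EA, so that the Sham libraries lay below all others. A share goes up where the other members go down, and no test was run on the shares.

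**Figure D3:**
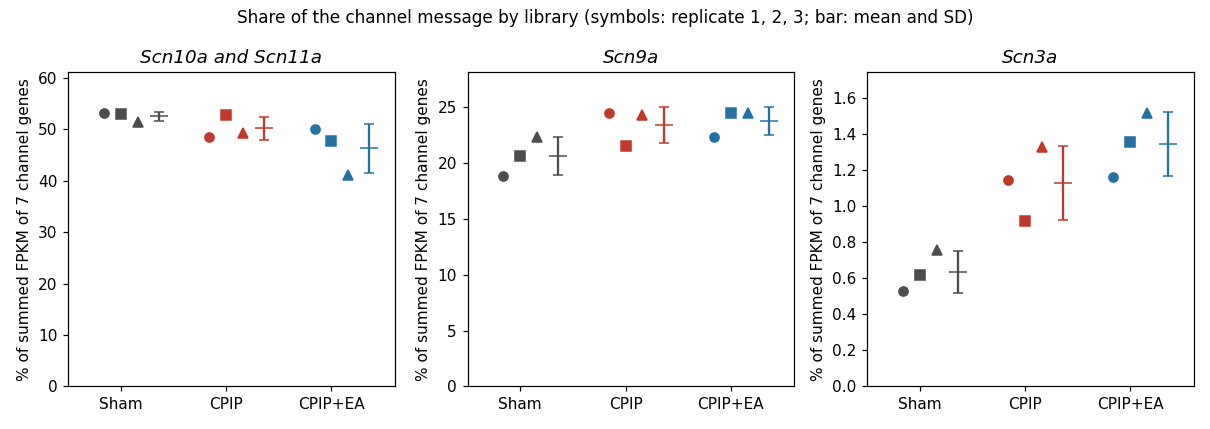
Share (y axis, % of the summed FPKM of 7 channel genes without Scn7a, from 0) of Scn10a with Scn11a, of Scn9a and of Scn3a in each library (x axis, by group), with symbols for replicates and a bar for the mean and SD. The Scn3a share is 0.528 to 0.760% in Sham and at least 0.920% in the libraries with ischemia, and the lowest share of Scn10a with Scn11a is 41.1%, in CPIP+EA replicate 3.

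Scn4a, the alpha subunit gene of skeletal muscle, was near the floor of the table, between 0.47 and 1.03 FPKM. Genes of beta subunits were more abundant, with Scn4b at 87.82 to 119.91 FPKM, Scn3b at 22.73 to 37.1 and Scn2b at 15.94 to 31.12. With all 9 libraries, none of these 4 genes had an unadjusted p under 0.05 in a comparison. The widest difference among them was that of Scn3b between CPIP+EA and Sham, 0.28 (95% interval −0.080 to 0.63, adjusted p = 0.532 in limma). Scn3b codes for a beta subunit of sensory neurons and stood at 24.45, 26.56 and 25.65 FPKM in Sham, 25.63, 26.50 and 28.07 in CPIP, and 35.40, 37.10 and 22.73 under CPIP+EA. CPIP+EA replicates 1 and 2 were above all other libraries and replicate 3 below them. Without replicate 3, with 2 CPIP+EA libraries, Scn3b differed from Sham by 0.50 (SE 0.064, adjusted p = 0.0111 in limma) and from CPIP by 0.43 (adjusted p = 0.334 in limma). It was not called, and its values did not overlap in either comparison. In that refit, values did not overlap for 28.9% of all genes between CPIP+EA and Sham and for 22.9% between CPIP+EA and CPIP.

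The partner list held 32 genes in all, with channel subunits, intracellular fibroblast growth factors, ankyrins and other scaffolds, trafficking proteins, kinases and calmodulins. Of the 32, 0 were called in each of the 3 comparisons. Unadjusted p under 0.05 was found for 1 of 32 between CPIP and Sham, 2 between CPIP+EA and CPIP and 4 between CPIP+EA and Sham, all lower in the group named first. The shares over all genes were 8.66%, 4.29% and 12.2%, and the partners were at 3.12%, 6.25% and 12.5%. Without CPIP+EA replicate 3, an unadjusted p under 0.05 was found for 2 partners between CPIP and Sham (both lower), beside 10.5% of all genes. In the same refit it was found for Scn3b (higher) and Prkca (lower) between CPIP+EA and CPIP, beside 7.23%, and for Scn3b (higher) and 4 lower partners between CPIP+EA and Sham, beside 13.8%. The medians over the 32 genes were −0.035, 0.00019 and −0.063.

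Fgf12, which binds the tail of the alpha subunits and shifts their inactivation, was the partner with the lowest p-values against Sham. It stood at 137.42, 140.88 and 129.95 FPKM in Sham, 109.33, 102.35 and 112.25 in CPIP, and 95.41, 108.75 and 93.32 under CPIP+EA. All 6 libraries with ischemia were below those of Sham, while CPIP and CPIP+EA overlapped. It differed by −0.33 in CPIP (SE 0.073, adjusted p = 0.102 in limma) and by −0.46 in CPIP+EA (SE 0.073, adjusted p = 0.0179 in limma), a fold of 0.728, which misses both the p and the fold limit. The other members of the family, Fgf11, Fgf13 and Fgf14, had an unadjusted p of at least 0.05 in all 3 comparisons with the 9 libraries. Fgf11, at about 1 FPKM, was higher in CPIP+EA than in Sham without overlap, by 0.36 (adjusted p = 0.505 in limma, 8.87% of all genes higher without overlap). Fgf13 was lower in CPIP than in Sham without overlap, at −0.035 (adjusted p = 0.962 in limma, 7.9% of all genes lower without overlap). Without CPIP+EA replicate 3, Fgf14 was below Sham without overlap, at −0.39 (adjusted p = 0.320 in limma) against −0.26 with all libraries. Fgf11 (0.29) and Fgf13 (0.032) were above Sham without overlap in that refit, where 28.9% of all genes did not overlap.

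The other partners named by the same rule code for kinases and a scaffold. Prkca, protein kinase C alpha, measured 43.54, 41.76 and 44.25 FPKM in Sham, 42.35, 43.61 and 40.42 in CPIP, and 37.71, 37.91 and 39.38 under CPIP+EA, all below both other groups. Its difference from CPIP was −0.13 (adjusted p = 0.996 in limma) and from Sham −0.17 (adjusted p = 0.217 in limma). Pdzd2, a PDZ-domain protein that binds Nav1.8, stood at 8.49, 8.53 and 7.92 FPKM in CPIP+EA against 8.87 to 10.92 in CPIP and 9.92 to 10.35 in Sham, with differences of −0.21 and −0.27 (adjusted p = 0.996 and 0.221 in limma). Prkce, protein kinase C epsilon, had means of 33.9, 29.1 and 28.3 FPKM in Sham, CPIP and CPIP+EA, and its CPIP+EA against Sham difference was −0.26 (adjusted p = 0.386 in limma), or −0.14 without CPIP+EA replicate 3. None of these passed the threshold.

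The heat map of libraries sets the members beside the marker lists. Scn1a, unlike Scn10a and Scn11a, was not low in CPIP+EA replicate 3, where it stood at 23.78 FPKM, within the 23.04 to 25.06 of the other libraries with ischemia. Deviations from the mean of the 9 libraries lay between −0.75 and 0.44 (log2) for the 8 members.

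**Figure D4:**
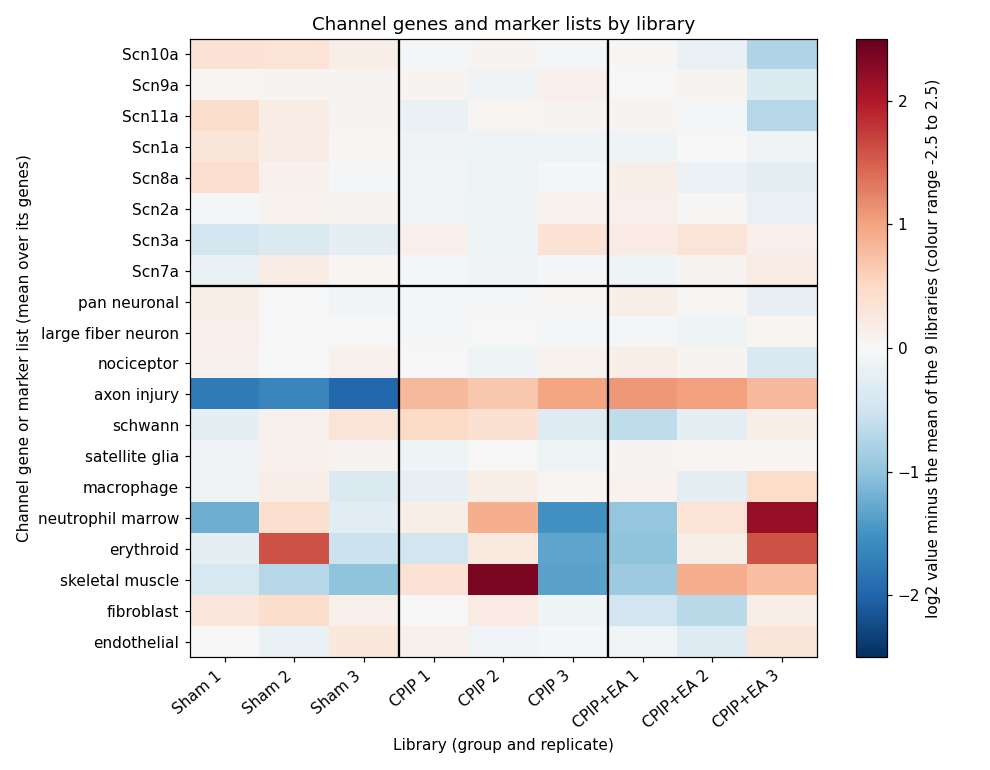
Log2 value of each channel gene, or mean log2 value of each marker list (rows), in each library (columns), minus the mean of the 9 libraries, on a colour scale from −2.5 (blue) to 2.5 (red). The axon injury row is blue in the 3 Sham libraries and red in the 6 others, and CPIP+EA replicate 3 is red for neutrophil and erythroid markers and blue for Scn10a and Scn11a. The erythroid row is nearly as red in Sham replicate 2 (1.58) as in CPIP+EA replicate 3 (1.59).

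For each member, the genes most like it over the 9 libraries were searched among 13914 genes with a mean of at least 1 FPKM. The measure was Pearson's r of log2(FPKM + 0.5), given as a description, since the libraries share their groups and many genes were searched. For Scn1a they were Vamp1 (r = 0.97), a synaptic vesicle protein, and Rapgef4 (0.95). Vamp1 averaged 483 FPKM in Sham, 380 in CPIP and 391 under CPIP+EA. For Scn3a they were Dusp26 (0.98), a phosphatase, with means of 80.6, 141 and 158 FPKM in the same order, and RGD1310262 (0.97). For Scn10a they were Srgap3 (0.98) and Insm2 (0.98), and for Scn11a Dlg4 (0.99), a postsynaptic scaffold, and Pitpnc1 (0.98). Srgap3 averaged 24.3, 21.4 and 19.3 FPKM and Dlg4 44.3, 41.5 and 39.5, each lowest in CPIP+EA. Without CPIP+EA replicate 3 the CPIP+EA means were 21.1 for Srgap3 and 42.1 for Dlg4, and 52.8 for Scn10a and 35.6 for Scn11a, so that of these 4 only Srgap3 and Scn10a stayed below CPIP. The nearest genes were Pomgnt2 and Hnrnpul2 for Scn8a (both 0.98), Adam9 (0.98) and Smarca1 (0.95) for Scn2a, Bves and Golga7b for Scn9a (both 0.96), and Bcl10 (0.97) and Dut (0.96) for Scn7a.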

How the data were processed

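RNA-Seq of ipsilateral L4–6 DRGs was analysed in 9 libraries, 3 for each of Sham, CPIP and CPIP+EA as the repository's labels group them. Reads were single-end and sequenced on a BGISEQ-500. The authors filtered them with SOAPnuke 1.5.2 and deposited an FPKM value per gene and library, with 2 decimals. The aligner, genome build, annotation and strand setting are not given in the sources used here, so overlapping genes may share reads. The authors also deposited a log2 ratio, a P-value and a Q-value per pair of groups, and these p-value and log2 columns were not used.

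The log2(FPKM + 0.5) scale was used for limma 3.58.1 under R 4.3.3 (eBayes with trend), in 1 fit of 9 libraries without covariates. Genes needed a mean of at least 0.1 FPKM. P-values were two-sided and adjusted by Benjamini-Hochberg over 17187 genes, and the study's limits (adjusted p under 0.01, fold of at least 1.5 or at most 0.667) set the calls. The fit was also run on simulated data with planted changes larger than those of the members, so that run gives no power for changes of their size. Every member was named, as were partner genes with an unadjusted p under 0.05, Scn4a, beta subunits, and the 2 genes most like each member, apart from genes of the partner list that are not reported here. The members and gene lists were chosen with earlier results of these data known. Of 83 markers listed, 82 were in the table. Tables and figures used Python 3.11.15, numpy 2.4.6, pandas 2.3.3 and matplotlib 3.10.9. Promoters came from RefSeq (GRCr8), which had a window for 7 of 8 members, Scn1a being the other. Alternatives were pseudocounts of 0.1 and 1, no filter or a mean of at least 1 FPKM, TPM, median, quantile, pan-neuronal and nociceptor scaling, other variance models, a replicate block, 2 groups alone, each library left out, and an adjusted p under 0.05.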

Additional observations from a re-analysis of the deposited data

How the results depend on the processing

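No member was called in any comparison under any alternative run, nor at an adjusted p under 0.05 without a fold limit. Of 528 recomputed log2 fold changes of members, 509 kept their direction and 19 did not, 12 of them with a library left out and 7 with the libraries rescaled. Among partner genes, 1 of 32 (Fgf12) passed that looser limit between CPIP+EA and Sham, against 0 with the limits used. Leaving out 1 library at a time gave −0.068 to 0.041 for Scn9a between CPIP and Sham. Between CPIP+EA and CPIP the ranges were −0.055 to 0.11 for Scn2a, −0.35 to 0.038 for Scn11a, −0.099 to 0.091 for Scn8a, −0.027 to 0.20 for Scn3a and −0.20 to 0.0073 for Scn9a, whose 0.0073 and the 0.038 of Scn11a came without CPIP+EA replicate 3. Between CPIP+EA and Sham they were −0.12 to 0.040 for Scn2a and −0.066 to 0.12 for Scn7a. Pan-neuronal scaling gave 0.012 for Scn9a between CPIP and Sham and −0.0037 for Scn8a between CPIP+EA and CPIP, where the TPM scale gave −0.0073. Nociceptor scaling, added after values were seen, gave 0.015 for Scn2a and 0.060 for Scn9a between CPIP and Sham, and 0.079 for Scn2a between CPIP+EA and Sham. Quantile normalization gave −0.011 for Scn7a between CPIP+EA and Sham. Pan-neuronal scaling adds −0.016 to every gene between CPIP+EA and CPIP and 0.035 in CPIP against Sham, and nociceptor scaling 0.083 there and 0.13 between CPIP+EA and Sham, so differences near 0 turn by construction. The cause of the other turns was not tested.

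Of all genes, 61 were called for CPIP against Sham and 83 for CPIP+EA against Sham. These counts were 28 to 61 and 35 to 82 with a library left out (the lowest when CPIP replicate 3 or CPIP+EA replicate 2, respectively, was dropped), 122 and 226 at an adjusted p under 0.05 without a fold limit, and 42 and 46 when 2 groups were fitted alone. For CPIP+EA against CPIP, 0 genes were called, and 0 to 2 with a library left out. With the replicate number as a block the counts against Sham were 26 and 42, and 0 members were called. Deviations of same-numbered libraries correlated at −0.236 to 0.297 and those of other pairs at −0.223 to 0.28, so no pairing by number was evident. Shared handling of same-numbered libraries cannot be told from these values. Groups of 3 and FPKM without counts limit the precision.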
